A study of Mus musculus with 36 samples.

Results

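Cpt1a and 5 enzymes that act after it in mitochondrial fatty acid oxidation (Cpt2, Acadm, Acadl, Acadvl and Hadh) were followed through the first days of differentiation of mouse embryonic stem cells. The 6 genes were taken by their symbols in the platform annotation, which gave 8 of the 24833 probe sets on both arrays and 6 of the 13674 genes that have a probe set of their own. All 8 lie on the chip A array (MG_U74Av2) and none on chip B (MG_U74Bv2). Cpt1a was chosen by its measured signals, since its fall after 2 days of retinoic acid ranked 1 among 9833 genes, so its differences are given below as a description, without a test. The other 5 genes were chosen for their place in the pathway, with earlier results of these data known.

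The cells were an Oct4:eGFP embryonic stem cell line, in which green fluorescence reports Oct4 (Pou5f1) expression, routinely grown on mitomycin-treated mouse embryonic fibroblasts and plated for the experiment on gelatin. Control cells stayed in medium with 1000 U/mL leukemia inhibitory factor (LIF), the cytokine that keeps these cells undifferentiated, and were harvested 2 days after plating. Differentiating cells had no LIF for 1, 3 or 5 days, or no LIF and 0.1 µM retinoic acid (RA) for 1 or 2 days, and cells were sorted by eGFP into high, medium and low gates. The 18 RNA samples, amplified and hybridised to both arrays, comprised 3 controls (high replicates 1 and 2, and medium), 4 samples of day 1 without LIF (high replicates 1 and 2, medium and low), 3 each of day 3 without LIF, day 5 without LIF and day 1 with RA (high, medium and low), and 2 of day 2 with RA (medium and low). The samples of an arm therefore differ in their gate, the labels name no separate cultures, and the p-values rest on a spread between samples that may be partly technical. Every control was harvested at 2 days, as was day 2 with RA. For the other 4 arms, time in culture and the change of medium cannot be told apart in comparisons against control. Both RA arms also lacked LIF, and no arm had 2 days without LIF and without RA. Against control, the part of RA and the part of LIF removal therefore cannot be told apart, at day 2 with RA as well. The arrays were read on 4 scan days. Control high 1 and medium fell on scan 4, and control high 2 on scan 1 beside day 1 high replicate 2 without LIF. Scan 2 took in both day 3 and day 1 RA, and scan 3 everything else. Apart from that scan 1 pair, a difference from control is therefore also a difference of scan day.

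The outer carnitine palmitoyltransferase Cpt1a (the liver form) joins long-chain fatty acids to carnitine at the outer mitochondrial membrane and is the main control point of their entry. The carnitine carrier Slc25a20 takes the product across the inner membrane, where Cpt2 turns it back into an acyl-CoA. An acyl-CoA dehydrogenase that fits the chain length (Acadvl very long, Acadl long, Acadm medium) makes the first oxidation of each turn of beta-oxidation, and Hadh, the short and medium chain hydroxyacyl-CoA dehydrogenase, makes the second. Nuclear receptors of the PPAR and RXR families, which bind repeats of the AGGTCA motif, are known regulators of several of these genes in liver and heart.

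The promoters of 3 members are shown because the genes differed in direction below: Cpt1a and Acadm had lower and Cpt2 higher signal at day 5. Hadh, also lower at day 5, and Acadl, also higher, are not shown. Neither of their windows held the AGGTCA motif marked below, so the 3 windows do not stand for all members. Each line holds the 250 bases before the RefSeq start in GRCm38.p6, read 5′ to 3′ on the gene's strand, with any AGGTCA motif, on either strand, in capitals. The windows are chr19:3323051-3323300 (plus strand) for Cpt1a, chr4:107923590-107923839 (minus strand) for Cpt2 and chr3:153944644-153944893 (minus strand) for Acadm.
Cpt1a: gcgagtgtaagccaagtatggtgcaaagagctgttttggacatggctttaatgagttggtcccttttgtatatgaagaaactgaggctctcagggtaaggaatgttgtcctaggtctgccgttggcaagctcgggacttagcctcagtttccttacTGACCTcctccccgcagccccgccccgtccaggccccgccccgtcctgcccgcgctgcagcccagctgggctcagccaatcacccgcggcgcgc
Cpt2: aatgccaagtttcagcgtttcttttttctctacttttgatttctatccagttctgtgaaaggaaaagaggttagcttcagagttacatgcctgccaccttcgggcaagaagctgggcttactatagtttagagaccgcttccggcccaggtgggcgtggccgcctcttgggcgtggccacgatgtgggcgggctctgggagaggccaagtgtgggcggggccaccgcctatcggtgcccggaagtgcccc
Acadm: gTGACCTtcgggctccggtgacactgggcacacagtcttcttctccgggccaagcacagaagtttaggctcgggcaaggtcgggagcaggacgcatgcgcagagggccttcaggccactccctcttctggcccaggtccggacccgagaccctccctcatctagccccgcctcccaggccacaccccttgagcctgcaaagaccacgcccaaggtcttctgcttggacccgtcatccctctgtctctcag
The Cpt1a window held 1 AGGTCA match, on the opposite strand, beginning 94 bases before the start. Acadm held 1 at 249 bases before the start, Acadvl held 1 at 87 bases, and Cpt2, Acadl and Hadh held none. Among 32851 promoter windows of this length 14% held AGGTCA on either strand. A direct repeat of AGGTCA with any 1 base between was in 0.0335% of the windows, on either strand, and in no member. The GC box GGGCGG, found in 32.7% of windows, occurred 2 times in the Cpt1a, Cpt2 and Hadh windows and 4 times in Acadl. These matches describe the letters of the windows and were not related to the signals.

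Signals are MAS5 intensities as the authors deposited them, with no unit of concentration, so levels are compared within a probe set only. Differences are log2 differences ± SE from limma on 18 samples, with the arm and the gate as terms, and adjusted p-values are Benjamini-Hochberg values over all tested probe sets of the chip. A probe set was tested if its mean log2 signal lay in the brightest 60% of its chip, which kept 14900 probe sets, including 5 of the 8 member probe sets, 1 each for Cpt1a, Cpt2, Acadm, Acadl and Hadh. The share of tested probe sets whose arm and control values do not overlap was 12.5% for day 1, 31.8% for day 3 and 44.4% for day 5 without LIF, and 40.6% for day 1 and 46.9% for day 2 with RA. Against day 1 without LIF, within scan 3, it was 46.8% for day 5 and 47.8% for day 2 with RA. Between the day 1 RA and day 3 libraries of scan 2 it was 32.4%. One library stood apart by its label. Replicate 2 of the day 1 high gate without LIF has a run record that names day 1 and the high gate but neither RA nor its absence, unlike the other differentiated libraries. Its mean chip A correlation was 0.974 with RA at day 1 and 0.972 with the day 3 arm, against 0.964 with its own arm. It is called the doubted library, and results that rest on it are also given without it. The exception is a fit with scan day as a fixed block. Such a fit ties the controls to scan 3 only through control high 2 and the doubted library, both in scan 1. All fixed-block differences from control therefore rest on the doubted library and cannot be fitted without it.

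Cpt1a was highest in control cells and lowest after 2 days of RA, where 1 of the 2 libraries did not exceed background. Its only probe set, 93320_at, had a signal of 273 and 237 in the control high gate replicates and 393 in the control medium gate. These values lay between percentiles 80.3 and 87.5 of all probe sets on their arrays. At day 1 without LIF the signal was 123 in high replicate 1, 149 in the medium gate, 204 in the low gate and 24.5 in the doubted library. At day 3 it was 96.8, 88.0 and 95.9 in the high, medium and low gates, a narrow band below every control. At day 5 it was 27.5 and 34.0 in the high and medium gates and 7.45 in the low gate.

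With RA the signal was already low on day 1, at 32.8, 33.0 and 34.7 in the high, medium and low gates, the tightest group of the series for this gene. On day 2 with RA it was 13.6 in the medium and 3.56 in the low gate, percentiles 31.7 and 10.9 of those arrays. The 4 yeast probe sets of chip A, which have no target in mouse RNA, ranged from 0.68 to 19.9 over the 18 arrays with a median of 8.62. In 16 of 18 libraries Cpt1a was brighter than every yeast probe set of its own array. The exceptions were the low gates of day 5 and of day 2 with RA, where only an upper limit of the level can be read.

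**Figure D1:**
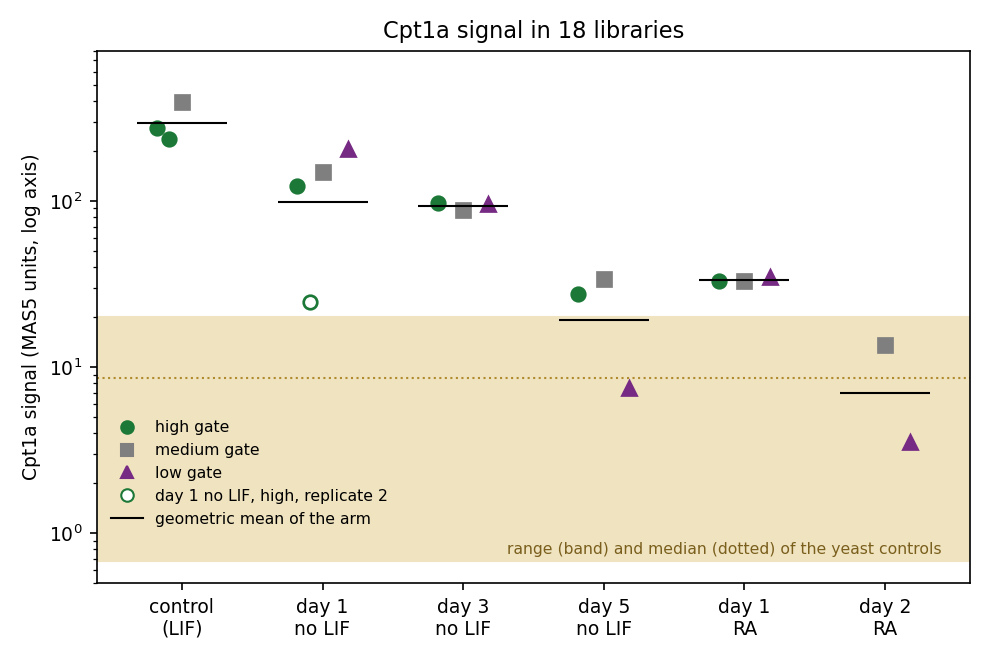
Cpt1a signal (MAS5 units, log axis) in each of the 18 libraries by arm, with the symbol giving the eGFP gate, the line the geometric mean of the arm and the open circle the doubted library. The shaded band is the range of the yeast controls (0.68 to 19.9): the controls lie at 237 to 393, and the day 5 low gate (7.45) and both day 2 RA libraries (13.6 and 3.56) lie inside the band.

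The fitted Cpt1a difference from control was -1.51 ± 0.53 (SE, log2, 4 samples against 3) at day 1 without LIF, a 2.85-fold lower signal. It was -1.66 ± 0.57 at day 3 (3.17-fold lower) and -3.69 ± 0.57 at day 5 (12.9-fold lower). With RA it was -3.04 ± 0.57 on day 1 (8.24-fold lower) and -4.87 ± 0.67 on day 2 (29.3-fold lower). Each of the 5 arms lay wholly below the controls. A bound was also taken from geometric mean signals, with no pseudocount and no gate term. Each day 2 RA library was set to the highest yeast signal of its array where Cpt1a was dimmer than that. On that scale the day 2 fall is at least 22.5-fold, and for day 5 the same bound is at least 12.4-fold. These bounds have no SE and are not on the scale of the fitted folds. The size of these falls depends on the scale and on the model. With a pseudocount of 32 the log2 difference was -2.70 at day 5 and -3.24 at day 2 with RA. A fixed block for scan day, which ties both arms to control only through the doubted library and control high 2, gave -5.81 and -6.87. Among 9833 genes the fall ranked 22 at day 1, 73 at day 3 and 12 at day 5 without LIF, and 7 at day 1 and 1 at day 2 with RA, counted from the largest. The day 5 and day 2 RA ranks include the low gates that did not exceed their yeast controls.

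In order of the arm means, control was followed by day 1 without LIF, day 3 without LIF, day 1 with RA, day 5 without LIF and day 2 with RA. The libraries of day 1 and day 3 without LIF overlapped only through the doubted library (24.5), without which day 1 (123 to 204) lay above day 3 (88.0 to 96.8). Those of day 1 with RA and day 5 overlapped, as did those of day 5 and day 2 with RA. Day 3 without LIF and day 1 with RA did not overlap. Without the doubted library the day 1 difference from control was -0.84 instead of -1.51, and with the scan day as a fixed block, where control and day 1 meet through the scan 1 pair that includes the doubted library, it was -3.08. The 5 comparisons above share the same 3 controls, none of which was scanned with day 3, day 5 or either RA arm.

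Comparisons within one scan day avoid both the controls and the scan, but their groups differ in time in culture. In scan 3 the RA cells were harvested at 2 days and their comparison group at 1 day. In scan 2 the RA cells were harvested at 1 day and their comparison group at 3 days. The part of RA and the part of time cannot be separated in either. Within scan 3, Cpt1a was lower by a log2 difference of -2.73 ± 0.41 at day 5 than at day 1 without LIF (3 samples each, 6.65-fold) and of -3.77 ± 0.48 at day 2 with RA than at day 1 without LIF (2 against 3, 13.6-fold). Within scan 2, the difference between day 1 with RA and day 3 without LIF was -1.38 ± 0.13 (3 each, 2.60-fold). On the scale of geometric mean signals, the 2 dim libraries were again set to the highest yeast signal of their arrays. The scan 3 folds are then at least 6.57 at day 5 and at least 11.9 at day 2 with RA. None of these groups overlapped. Day 1 with RA against day 1 without LIF, which spans scans, gave -1.53 ± 0.52 with the doubted library, whose signal of 24.5 was the only day 1 value under the RA values, and -2.09 without it.

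Markers of the undifferentiated state were also lower in sum in the differentiated arms, with overlap with the controls at day 1 without LIF. Their summed signal over 8 genes was 16715 to 20210 in controls, 10736 (the doubted library) to 17822 at day 1, 9516 to 10562 at day 3 and 3362 to 3567 at day 5 without LIF. With RA it was 10804 to 12226 on day 1 and 7555 to 9270 on day 2, so that the sum was lowest at day 5 and Cpt1a at day 2 with RA. Dppa5a was the largest part of the sum in controls (5700 to 6880). Pou5f1 (284) and Tdgf1 (89.5) were lowest in the day 2 RA low gate, and Nanog, Sox2, Zfp42, Dppa5a, Dppa2 and Fgf4 in a day 5 library. Of 8 tested, 0 were called at day 1 without LIF (2.28% of all genes), and 7 were lower at day 5 (15.2%) and at day 2 with RA (8.4%). Fibroblast markers, measured for 13 of 14 listed genes, summed to 785 to 895 in controls, 3081 to 3148 at day 5 and 2639 to 3979 at day 2 with RA. Of 9 fibroblast markers tested 7 were higher and 0 lower at day 5, where 17.2% of all genes were higher, and 4 were higher and 1 lower at day 2 with RA, where 8.79% were higher. The small matrix proteoglycan Dcn went from 4.95 to 19.9 in controls to 152 to 160 at day 5. The surface protein Thy1 went from 41.2 to 61 in controls to 11.6 to 27.9 at day 5, while Lum (9.95 to 22.6) and Postn (0.914 to 15.8), 2 other matrix genes, stayed near the yeast range in all 18 libraries. Extraembryonic endoderm markers (13 of 13 measured) summed to 3612 to 4415 in controls, 2555 to 2684 at day 5 and 3272 to 3999 at day 2 with RA, most of it the apolipoprotein Apoe (3120 to 3840 in controls, 1950 to 2040 at day 2 with RA). Of 10 tested, 3 were higher and 2 lower at day 5 (17.2% and 15.2% of all genes), and 4 higher and 1 lower at day 2 with RA (8.79% and 8.4%). There the endocytic adaptor Dab2 was at 293 to 481 against 12.3 to 30.4 in controls, the receptor Cubn at 223 to 603 against 20.7 to 27.2, and the transcription factor Foxa2 at 95.8 to 131 against 7.71 to 8.68. No marker was listed at 0. The log2 ratio of Actb 3′ to 5′ probe sets, a sign of RNA integrity and amplification, averaged 1.22 in controls, 0.864 at day 5, 1.33 at day 1 with RA and 0.826 at day 2 with RA. The part of these measures in the results for the 6 genes was not tested. In bulk RNA, fewer expressing cells and less RNA per cell cannot be told apart.

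Cpt2, the inner membrane partner of Cpt1a, did not fall. Its bright probe set, 95646_at, had a signal of 200, 257 and 204 in the controls (high 1, high 2 and medium). At day 5 it was 414, 420 and 339 in the high, medium and low gates, each above every control. Cpt2 rose at day 5 by 0.83 ± 0.18 (SE, log2, limma adjusted p = 0.00235, 1.78-fold), in a comparison that called 29.3% of tested probe sets. Within scan 3 it was higher at day 5 than at day 1 without LIF by 0.96 ± 0.15 (limma adjusted p = 0.00291, where 30.8% were called). The other 3 day 1 values without LIF were 180, 209 and 207 beside 288 in the doubted library.

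In the remaining arms Cpt2 lay close to control. Its signal was 256, 286 and 262 at day 3, 220, 222 and 262 at day 1 with RA, and 251 and 283 at day 2 with RA. At day 2 with RA, where Cpt1a was at its lowest, the Cpt2 difference was 0.31 with a 95% interval of -0.14 to 0.76 (limma adjusted p = 0.342). Within scan 3 Cpt2 at day 2 with RA was 0.41 ± 0.18 above day 1 without LIF (limma adjusted p = 0.168, 12.5% called). Those values did not overlap (251 and 283 against 180 to 209), as for 47.8% of tested probe sets. The second Cpt2 probe set, 161978_r_at, was not tested, since its mean log2 signal of 2.39 lay under the limit of 4.80, with a signal of 0.305 to 4.82 over the libraries, in or below the yeast range.

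**Figure D2:**
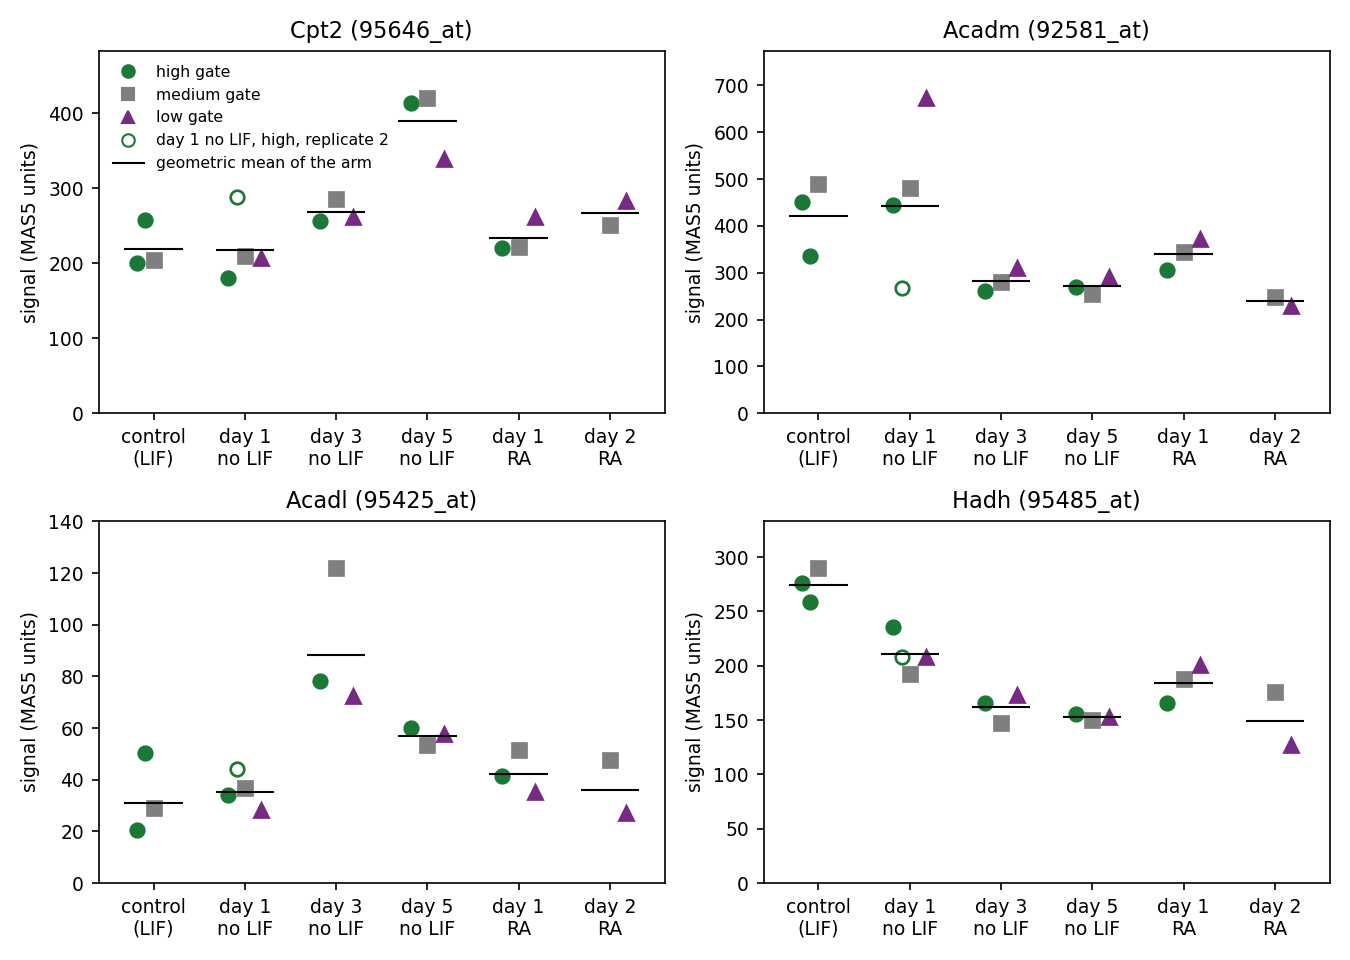
Signal (MAS5 units, linear axis from 0) of Cpt2, Acadm, Acadl and Hadh in the 18 libraries by arm, with symbols for the gate, lines for the geometric mean and an open circle for the doubted library. Cpt2 is highest at day 5 (339 to 420), Acadl at day 3 (72.5 to 122) and Hadh in controls (259 to 290).

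Acadm, the medium chain dehydrogenase, was lower at days 3 and 5 without LIF and at day 2 with RA. Its signal (92581_at) was 452, 335 and 490 in the controls. At day 1 without LIF it was 444, 480 and 673 in high 1, medium and low, and 268 in the doubted library. It was 261, 281 and 310 at day 3, 270, 255 and 291 at day 5, 306, 345 and 372 at day 1 with RA, and 249 and 230 at day 2 with RA. The day 3, day 5 and day 2 RA values all lay under the lowest control of 335, and those of day 1 with RA overlapped the controls.

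Acadm fell by 0.76 ± 0.21 at day 5 (SE, log2, limma adjusted p = 0.0116) and by 1.06 ± 0.25 at day 2 with RA (limma adjusted p = 0.00876, 15.2% of probe sets called). The fall at day 3 was 0.70 ± 0.21 (limma adjusted p = 0.0396, 11.5% called), and it did not pass with scan day as a random block (limma adjusted p = 0.168). At day 1 with RA the difference was -0.44 ± 0.21 (limma adjusted p = 0.151, 19.5% called). Within scan 3 Acadm was lower than at day 1 without LIF both at day 5 (-0.94 ± 0.16, limma adjusted p = 0.00421) and at day 2 with RA (-1.18 ± 0.19, limma adjusted p = 0.00776, 12.5% called). Several of these calls rest on single libraries. The day 3 call was lost without control high 1 (-0.61) or control medium (-0.67), without any 1 of the 3 day 3 libraries (-0.67 to -0.78), and without the medium gate of day 1 without LIF or of day 1 with RA (both -0.70). The day 5 call was lost without its medium gate (-0.68), and both day 2 RA calls without its low gate (-0.91 against control, -0.96 within scan 3). Day 1 with RA against day 1 without LIF gave -0.44 with the doubted library (limma adjusted p = 0.175, 6.52% called) and -0.62 without it (limma adjusted p = 0.00872).

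Acadl, the long chain dehydrogenase, moved the other way and peaked at day 3. Its signal (95425_at) was 20.6, 50.5 and 29.2 in the controls, so that its controls differed more than those of Cpt2, Acadm or Hadh. It was 34.1, 37.0 and 28.3 at day 1 without LIF and 44.1 in the doubted library. At day 3 it was 78.3, 122 and 72.5, all above every control, and at day 5 it was 60, 53.4 and 57.7. With RA it was 41.6, 51.4 and 35.4 on day 1 and 47.6 and 27.3 on day 2, inside or next to the control range.

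Acadl rose at day 3 by 1.48 ± 0.26 (SE, log2, limma adjusted p = 0.00219, 2.79-fold). At day 5 it rose by 0.88 ± 0.26 (limma adjusted p = 0.0152), but not with scan day as a fixed block (0.54, limma adjusted p = 0.228), and the call was lost without control high 1 (0.64), control medium (0.76), day 5 high (0.87) or day 5 low (0.76). Within scan 2 Acadl was lower at day 1 with RA than at day 3 without LIF by a log2 difference of -0.999 ± 0.14 (limma adjusted p = 0.0263, 1.64% called). That call was lost without the medium or the low gate of either arm (-0.91 and -1.02). Within scan 3 it was higher at day 5 than at day 1 without LIF by 0.72 ± 0.17 (limma adjusted p = 0.016), a call lost without day 1 high 1 (0.71), medium (0.74) or low (0.72), or day 5 high (0.71) or low (0.56). At day 1 with RA against control, leaving out control high 2 raised the difference from 0.48 to 0.81 and brought it past the test (limma adjusted p = 0.0119). Acadl and Cpt1a lie nearest to the brightness limit among the members tested, at mean log2 signals of 5.63 and 5.99 against a limit of 4.80.

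Acadvl, the very long chain dehydrogenase, could not be measured here. Its probe set 161623_at ranged from 0.869 to 7.63 and 93334_at from 0.562 to 12.7 over the 18 libraries, in or below the yeast range. Neither reached the brightness limit, so neither was tested. These values limit the probe sets and say nothing of the gene's true level.

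Hadh had the steadiest signal of the members and fell in 4 of the 5 arms. Its signal (95485_at) was 276, 259 and 290 in the controls. At day 1 without LIF it was 236, 192 and 208 in high 1, medium and low and 208 in the doubted library, all under the controls. It was 166, 147 and 173 at day 3, and 156, 150 and 153 at day 5. With RA it was 166, 188 and 201 on day 1 and 176 and 127 on day 2.

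The fall of Hadh at day 5 was 0.83 ± 0.15 (SE, log2, limma adjusted p = 0.000628, 1.77-fold). At day 2 with RA it fell by 0.86 ± 0.17 (limma adjusted p = 0.0038), at day 3 by 0.75 ± 0.15 (limma adjusted p = 0.00462) and at day 1 with RA by 0.56 ± 0.15 (limma adjusted p = 0.014). The day 1 difference without LIF was -0.38 ± 0.14 (limma adjusted p = 0.158), in a comparison that called 2.06% of probe sets. With scan day as a random block the calls at day 3 (limma adjusted p = 0.0929) and day 1 with RA (limma adjusted p = 0.158) were lost. With it as a fixed block the calls at day 5 (limma adjusted p = 0.0601) and day 2 with RA (limma adjusted p = 0.0751) were lost. Within scan 3 the day 5 value was under the day 1 value by -0.46 ± 0.16 (limma adjusted p = 0.0568), and it passed only when either day 2 RA library left the fit (limma adjusted p = 0.0421). The day 2 RA value was under the day 1 value of that scan by -0.44 ± 0.18 (limma adjusted p = 0.15). The call at day 1 with RA was lost without control medium (-0.51) or its own high gate (-0.46), and that at day 2 with RA without its low gate (-0.61).

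**Figure D3:**
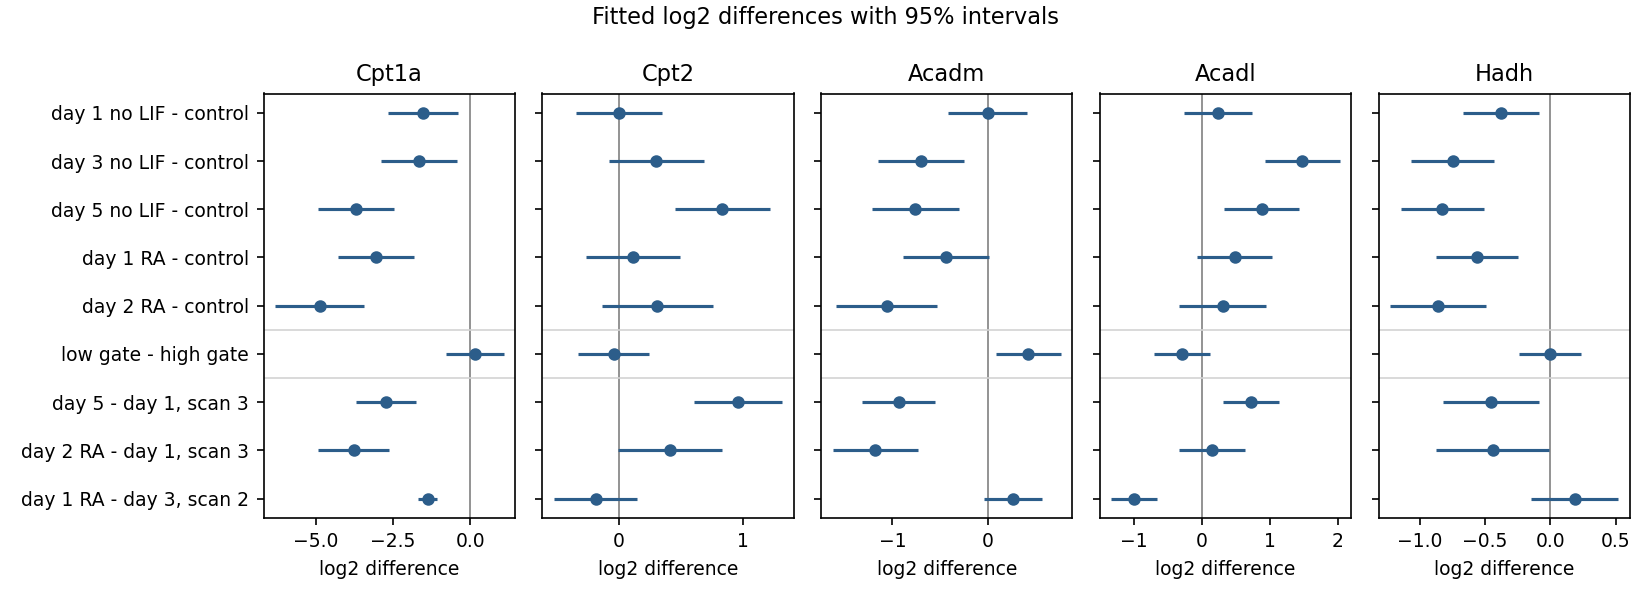
Fitted log2 differences (points) with 95% intervals (bars) for the 5 measured members, from the 18 libraries for the upper 6 comparisons and from the libraries of 1 scan day for the lower 3. Cpt1a was chosen by its signals, so its bars are given as a description and are no test of a difference from 0. Horizontal scales differ between panels, with Cpt1a reaching -4.87 at day 2 with RA and Cpt2 and Acadl lying to the right of 0 at day 5.

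The members thus did not share one course. Among the 4 tested enzymes other than Cpt1a, at day 5 Cpt2 and Acadl rose and Acadm and Hadh fell, and at day 2 with RA Acadm and Hadh fell while Cpt2 and Acadl did not pass. Over the 18 libraries the log2 signal of Cpt1a correlated with Hadh at 0.76, Acadm at 0.73, Acadl at -0.17 and Cpt2 at -0.57. The libraries share arms and gates, and these correlations are given as a description.

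Averaged over the arms, the eGFP gate gave no call. Within arms the Cpt1a values of the gates lay in different orders, but most gates of an arm are a single library, so these orders cannot be tested. The low gate was the lowest at day 5 (7.45 against 27.5 and 34.0) and at day 2 with RA (3.56 against 13.6). Both low gate values lay under the highest yeast signal of their arrays (14.1 and 12.6). At day 1 without LIF the low gate was the highest (204 against 123, 149 and, in the doubted library, 24.5). Between the low and high gates the averaged Cpt1a difference was 0.15 (log2) with a 95% interval of -0.77 to 1.08, and the sign turned without the doubted library (-0.21), without the day 1 low gate (-0.32), and with scan day as a fixed (-0.23) or random block (-0.05). Acadm was at 0.42 ± 0.16 (limma adjusted p = 0.813). The gates called 0% of probe sets in limma's test, while 808 probe sets, or 5.42%, had an unadjusted p under 0.05. Hadh differed by -0.00 with a 95% interval of -0.24 to 0.23.

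Other genes of the pathway were read from 7 lists, which held 105 genes, 75 of them measured. At day 5 without LIF 13 of the 75 were higher and 18 lower (41.3%, against 32.5% of all genes, 17.2% higher and 15.2% lower), with a median log2 difference of -0.00 beside 0.01 for all genes. At day 2 with RA 7 were higher and 10 lower (22.7% against 17.2%, 8.79% higher and 8.4% lower), with medians of -0.01 and 0.01 beside all genes. At day 3, 11 were higher and 9 lower (26.7% against 12.7%, 6.94% higher and 5.8% lower). At day 1 with RA 11 were higher and 14 lower (33.3% against 20.9%, 11% higher and 9.95% lower). At day 1 without LIF 2 were higher and 2 lower (5.33% against 2.28%, 1.21% higher and 1.07% lower). With scan day as a random block, 4 genes passed at day 3 in place of 20, 7 at day 1 with RA in place of 25, and 0 at day 1 without LIF in place of 4. The day 3 count fell to 8 without control high 1, 12 without control medium, 10 without its own high gate and 12 without its own medium gate. The day 1 RA count fell to 13 to 16 without control high 1, control medium or any 1 of its own 3 libraries. The day 2 RA count fell to 11 without control medium, 9 without its own medium gate and 8 without its low gate. The day 1 count was 0 without control high 1 or its own medium gate, 1 without control medium, 7 without control high 2, and 2 without the day 5 medium gate or either day 2 RA library.

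In the carnitine shuttle 4 of 6 listed genes were measured, and 1 rose and 1 fell at day 5 (50%, against 32.5% of all genes). Slc25a20, the carrier between Cpt1a and Cpt2, had a signal of 258, 155 and 301 in controls and of 111, 106 and 122 at day 5. It fell by 1.13 ± 0.22 at day 5 (SE, log2, limma adjusted p = 0.0011), by 1.24 ± 0.22 at day 1 with RA (limma adjusted p = 0.00143) and by 1.33 ± 0.25 at day 2 with RA (limma adjusted p = 0.00267), where its values were 108 and 103. With scan day as a fixed block the day 5 fall (0.78, limma adjusted p = 0.107) and the day 2 RA fall (0.95, limma adjusted p = 0.0748) did not pass. Within scan 3 it was lower at day 5 (-0.62 ± 0.20, limma adjusted p = 0.0427) and at day 2 with RA (-0.83 ± 0.23, limma adjusted p = 0.0495) than at day 1 without LIF. Crot, the peroxisomal carnitine octanoyltransferase, rose at day 5 by 1.80 ± 0.21 (limma adjusted p = 4.91e-05), from 108 to 123 in controls to 421 to 468. At day 2 with RA Crot was at 151 and 95, a difference of -0.03 ± 0.25 (limma adjusted p = 0.951). Crat, the carnitine acetyltransferase, rose at day 2 with RA by 0.77 ± 0.24 (limma adjusted p = 0.0389). That call was lost with no brightness filter (0.0741 as the adjusted p) and in 7 of 18 fits that left out 1 library, among them its own low gate (0.48), control high 1 (0.69) and control high 2 (0.75).

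Of 17 other measured genes of mitochondrial beta-oxidation and electron transfer, 5 were higher and 3 lower at day 5 (47.1%, against 32.5% of all genes). At day 2 with RA 0 were higher and 3 lower (17.6%, close to the 17.2% of all genes). Hadhb, the beta subunit of the trifunctional protein for long chains, fell by 0.73 ± 0.15 at day 5 (SE, log2, limma adjusted p = 0.00169) and by 0.91 ± 0.17 at day 2 with RA (limma adjusted p = 0.00294). It was 363 to 397 in controls, 187 to 266 at day 5, and 208 and 184 at day 2 with RA. Etfb, a subunit of the flavoprotein that takes electrons from the acyl-CoA dehydrogenases, fell by 0.86 ± 0.16 at day 5 (limma adjusted p = 0.000964). Acaa2, the mitochondrial thiolase that ends each turn, changed direction with time. Its signal was 684 to 777 in controls, 369 to 457 at day 1 without LIF, 335 to 491 at day 3 and 933 to 1000 at day 5, and 446 and 381 at day 2 with RA. Acaa2 fell by 0.75 ± 0.15 at day 3 (limma adjusted p = 0.00577) and rose by 0.43 ± 0.15 at day 5 (limma adjusted p = 0.0426). These 2 calls were not refitted with single libraries left out. At day 2 with RA Acaa2 fell by 0.78 ± 0.18 (limma adjusted p = 0.00769), with a difference of -0.72 without the low gate. Within scan 3 the rise from day 1 to day 5 was 1.20 ± 0.14 (limma adjusted p = 0.00069).

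Among 10 measured peroxisomal genes 1 rose and 1 fell at day 5 (20%, against 32.5% of all genes), and 1 fell at day 2 with RA (10%, against 17.2%). Scp2, the peroxisomal thiolase and sterol carrier, fell by 0.72 ± 0.24 at day 5 (SE, log2, limma adjusted p = 0.0318), which was lost with no brightness filter (0.0581 as the adjusted p), and by 1.01 ± 0.28 at day 2 with RA (limma adjusted p = 0.0225). The day 5 call was also lost without control high 2, control medium, or the day 5 medium or low gate (-0.67 to -0.61), and the day 2 RA call without control medium or either day 2 RA library (-1.11 to -0.90). Phyh, which hydroxylates phytanoyl-CoA in the first step of alpha-oxidation, rose by 0.70 ± 0.25 at day 5 (limma adjusted p = 0.0424), a call lost with scan day as a random block (0.113 as the adjusted p) and in 10 of 18 fits that left out 1 library, with the difference at 0.45 without control high 2 and 0.52 without the day 5 medium gate. Of 2 measured ketone body genes, Bdh1, the hydroxybutyrate dehydrogenase, fell at day 5 (-1.23 ± 0.21, limma adjusted p = 0.000817) and at day 2 with RA (-1.18 ± 0.24, limma adjusted p = 0.00708). Oxct1, which activates ketone bodies for use, fell at day 2 with RA (-0.61 ± 0.17, limma adjusted p = 0.0257) and rose at day 3 (0.62 ± 0.15, limma adjusted p = 0.0145). The Oxct1 call on day 2 of RA was lost without control medium (-0.52) or either day 2 RA library (-0.77 and -0.48), and the Bdh1 call without the medium gate (-1.16).

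Of 15 measured regulators 2 were higher and 5 lower at day 5 (46.7%, against 32.5% of all genes). At day 2 with RA 1 was higher and 2 lower (20%, against 17.2%). Angptl4, a PPAR target that inhibits lipoprotein lipase, fell at day 5 by 1.45 ± 0.19 (SE, log2, limma adjusted p = 5.73e-05), from 84.9 to 118 in controls to 28.1 to 38.6. Sirt1, a nuclear deacetylase, fell by 1.22 ± 0.20 at day 5 (limma adjusted p = 0.000851). Sirt3, the mitochondrial deacetylase that acts on Acadl, fell by 1.24 ± 0.26 at day 2 with RA (limma adjusted p = 0.00537). Pdk4, the kinase that restrains pyruvate oxidation, fell there by 1.12 ± 0.33 (limma adjusted p = 0.03), a call lost with no brightness filter (0.0583 as the adjusted p). Without the day 2 RA low gate the Pdk4 difference was -0.56 and did not pass, nor did it without control high 1 (-1.08) or control medium (-1.17), and the Sirt3 call was lost without that low gate (-0.93). Ppard, a PPAR receptor of many tissues, was at 0.21 ± 0.27 at day 5 (limma adjusted p = 0.623).

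Of 13 measured genes of fatty acid uptake, binding and activation 3 rose and 3 fell at day 5 (46.2%, against 32.5% of all genes). Lipoprotein lipase (Lpl) fell by 1.17 ± 0.25 (SE, log2, limma adjusted p = 0.00275), from 26.4 to 46.6 in controls to 11.8 to 14.9, a call lost with scan day as a fixed block (-0.58, limma adjusted p = 0.22). Within scan 3 Lpl was lower at day 5 than at day 1 by 0.89 ± 0.13 (-0.89, limma adjusted p = 0.00209). The day 5 Lpl signals of 14.9, 11.8 and 14.6 (high, medium and low) lay near background. The highest yeast signals of those arrays were 13.3, 19.9 and 14.1, so the size of either Lpl fall is uncertain. The acyl-CoA thioesterase Acot7 fell by 0.81 ± 0.13 (limma adjusted p = 0.000273). At day 2 with RA the acyl-CoA synthetase Acsl4 rose by 1.02 ± 0.28 (limma adjusted p = 0.0206) and the binding protein Fabp3 fell by 1.20 ± 0.33 (limma adjusted p = 0.0226). The Acsl4 call was lost without control high 1 (0.90), control medium (1.06) or either day 2 RA library (0.80 and 1.20), and the Fabp3 call without the day 2 RA medium gate (-0.86).

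Genes of fatty acid synthesis, whose intermediate malonyl-CoA inhibits Cpt1a, were called in both directions at day 5 without LIF and were all higher among those called at day 2 with RA. At day 1 without LIF 0 of 14 were called (2.28% of all genes). At day 3, 3 were higher and 0 lower (21.4%, against 12.7% of all genes). At day 5, 1 of 14 was higher and 4 lower (35.7%, against 32.5% of all genes), with a median of -0.0185. Within scan 3 the direction differed, with 3 higher and 1 lower at day 5 than at day 1 without LIF (28.6%, against 34% of all genes, 18.5% higher and 15.5% lower). Acacb, the acetyl-CoA carboxylase of the outer mitochondrial membrane, fell by 1.09 ± 0.23 (SE, log2, limma adjusted p = 0.0043) and Acaca, the cytosolic form, by 0.75 ± 0.17 (limma adjusted p = 0.00559). Neither passed with scan day as a fixed block (0.18 and 0.469 as adjusted p-values), and the Acaca call was lost without the day 5 high gate (-0.58). At day 1 with RA 4 were higher and 2 lower against control (42.9%, against 20.9% of all genes, 11% higher and 9.95% lower). At day 2 with RA 4 of 14 were higher and 0 lower (28.6%, against 17.2% of all genes, 8.79% higher and 8.4% lower), with a median of 0.59 beside 0.01 for all genes. The desaturase Fads2 had a signal of 111, 160 and 185 in controls and of 1080 and 819 at day 2 with RA. Fads2 rose by 2.58 ± 0.34 (limma adjusted p = 0.000706) and Fads1 by 1.45 ± 0.24 (limma adjusted p = 0.00133). Fatty acid synthase (Fasn) was at 586 to 600 in controls, 1190 to 1410 at day 1 with RA, and 1240 and 1520 at day 2 with RA, and rose on both days by 1.13 ± 0.18 and 1.21 ± 0.21 (limma adjusted p = 0.000721 and 0.00153). Within scan 3, 7 of 14 were higher and 0 lower at day 2 with RA than at day 1 without LIF (50%, against 14.4% of all genes, 8.17% higher and 6.19% lower).

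**Figure D4:**
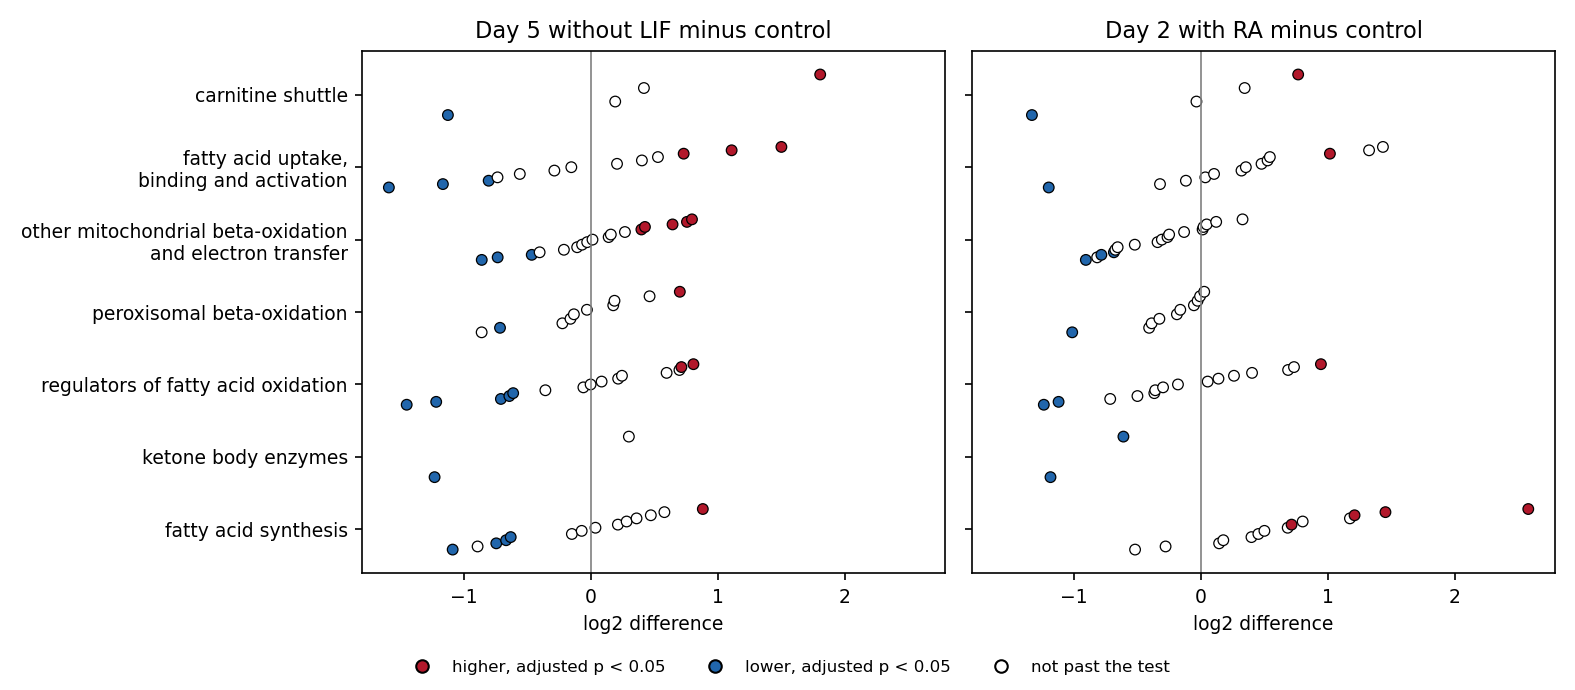
Log2 difference from control of each measured gene of the 7 pathway lists (75 genes, one point each) at day 5 without LIF (left) and day 2 with RA (right), with red and blue for genes past limma's test. At day 5 calls lie on both sides of 0 (13 higher, 18 lower), and the 4 fatty acid synthesis genes called at day 2 with RA all lie to the right.

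RA was also compared with its absence at day 1. Day 1 with RA was in scan 2 and day 1 without LIF in scans 1 and 3, so RA and scan day cannot be told apart here. With all libraries 5 of the 75 list genes were higher and 3 lower at day 1 with RA than at day 1 without LIF (10.7% against 6.73% of all genes, 3.28% higher and 3.45% lower), and 20 passed without the doubted library. Without it the probe sets past the test also rose, from 972 to 2571 of 14900. Leaving out any 1 of 6 libraries of these arms other than the doubted one left 0 to 2 list genes. Me1, the malic enzyme that supplies NADPH for synthesis, was higher by 0.91 ± 0.18 (SE, log2, limma adjusted p = 0.01) and Fasn by 0.72 ± 0.16 (limma adjusted p = 0.0178). Sirt1 was lower (-0.99 ± 0.19, limma adjusted p = 0.0197), and so was Hsd17b10 (-0.59 ± 0.14, limma adjusted p = 0.019), a mitochondrial dehydrogenase of branched and short chains. Higher were also the bifunctional peroxisomal enzyme Hsd17b4 (0.60 ± 0.15, limma adjusted p = 0.0251), the receptor Rxrb (0.61 ± 0.16, limma adjusted p = 0.0318) and Lpl (0.79 ± 0.23, limma adjusted p = 0.0499). Slc25a20 was lower (-0.71 ± 0.20, limma adjusted p = 0.0413). Of 18 fits that left out 1 library, Slc25a20 lost its call in 14, Lpl in 15, Hsd17b4, Rxrb and Sirt1 in 6 each, Hsd17b10 in 5, Fasn in 3 and Me1 in 1. With scan day as a random block 0 of the 75 passed.

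The 5 genes whose log2 signal was most correlated with Cpt1a over the 18 libraries, among 9832 genes, were Fgf4 (Pearson r = 0.927), Nr2c2ap (0.924), Nfu1 (0.922), Kyat3 (0.920) and Dhodh (0.919). In all 12 genes, or 0.122%, exceeded 0.9. Pou5f1, the gene behind the reporter, ranked 6 at 0.913. Fgf4, a growth factor made by undifferentiated cells, had a signal of 1280 to 1490 in controls, 194 to 203 at day 5, and 220 and 203 at day 2 with RA. Dhodh, the mitochondrial enzyme of pyrimidine synthesis, was at 426 to 472 in controls, 181 to 215 at day 5, and 191 and 161 at day 2 with RA. The log2 changes of these 5 were smaller than that of Cpt1a, with Fgf4 the nearest at -2.77 at day 5. Since Cpt1a was chosen for the size of its fall, its larger change follows in part from that choice. Without the doubted library the correlations were 0.919 to 0.926. These values describe likeness across libraries that share arms, and are no test of it.

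**Figure D5:**
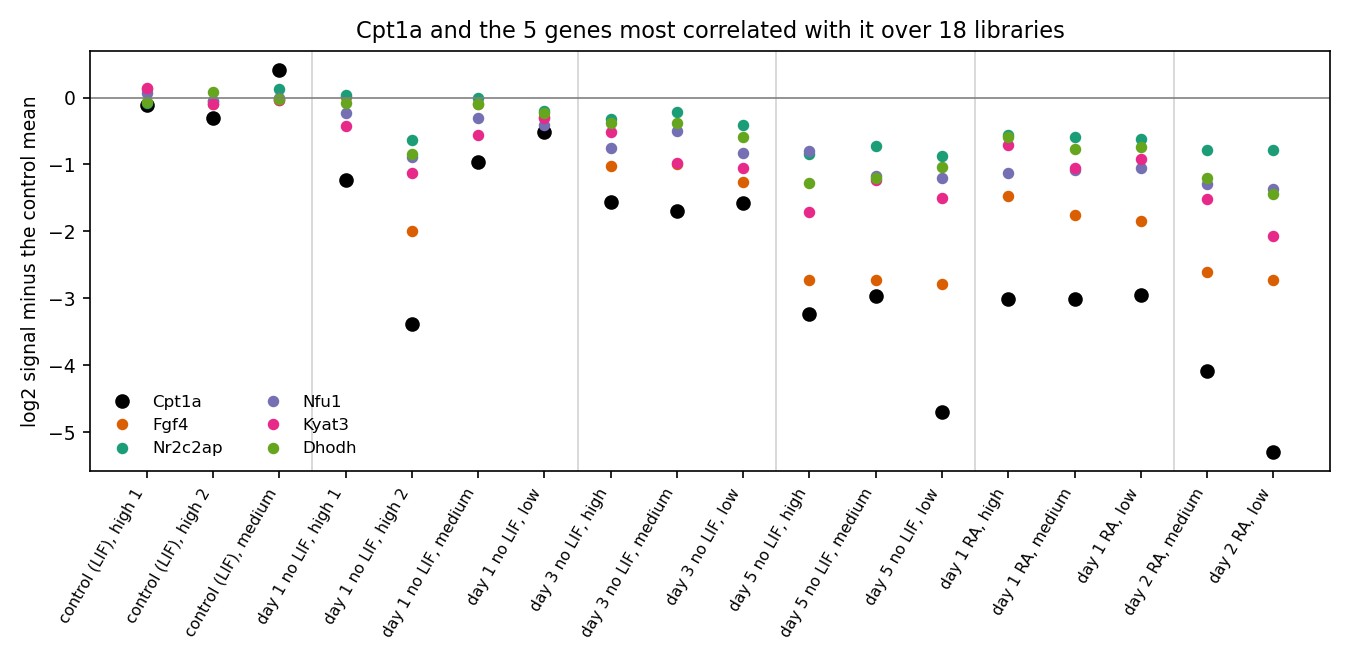
Log2 signal minus the control mean for Cpt1a and the 5 genes most correlated with it, in each of the 18 libraries (vertical lines separate the arms). Cpt1a, which was chosen for the size of its fall, spans the widest range. The doubted library (day 1 no LIF, high 2) lies below the other day 1 libraries without LIF for all 6 genes.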

How the data were processed

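The deposited values are signal intensities from MG_U74Av2 and MG_U74Bv2 arrays that the authors computed with MAS5, per the submitters' processing notes, where no version stands beside the name. After 2% trimming the arrays average 150.0 to 150.1, the level to which MAS5 was scaled. RNA was amplified in a repeated cycle before labelling, per the labels' protocols, which favours 3′ ends. The number of arrays limits the precision. Signals were taken as log2(signal + 4) on chip A and log2(signal + 7) on chip B, and the brightest 60% of each chip were tested in R 4.3.3 with limma 3.58.1 (lmFit and eBayes, arm plus gate, Benjamini-Hochberg within each chip, threshold 0.05). Fits within scan 2 or scan 3 used only the libraries of that scan day. A gene was represented by 1 probe set with 1 symbol (chip A first, then the brightest). The test was tried on simulated data.

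The members and the 7 lists were chosen with earlier results of these data known. Named list genes are the up to 2 with the smallest p among those past the test in each list at day 5, at day 2 with RA, for RA at day 1 and for the gate; values of these in other comparisons, and Ppard, were added. The genes like Cpt1a are the 5 with the highest Pearson correlation. Of 24833 probe sets 21414 have 1 gene symbol in the platform annotation, 574 several and 2845 none.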

Additional observations from a re-analysis of the deposited data

Results flagged for a closer look

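Among 32 values tested in the 4 libraries of day 1 without LIF, 3 had 1 library far from the rest, and chance alone would flag about 1 in 20. All 3 are in the doubted library (high gate, replicate 2). Its Lpl signal was 58.9 against 27.6 to 30.5 in the other 3, a gap of 0.872 of the whole range. Its Sirt3 signal was 35.6 against 57.3 to 61.3, a gap of 0.875. Its Hsd17b4 signal was 343 against 237 to 251, a gap of 0.84. The cause was not tested.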

How the results depend on the processing

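Apart from single left-out libraries, 321 differences of Cpt2, Acadm, Acadl and Hadh were recomputed, of which 295 kept their direction and their side of the threshold, 10 lost a call, 5 gained one and 11 changed sign. Of 72 for Cpt1a, which were not tested, 3 changed sign, all for the gate. The rise of Cpt2 at day 5 passed under every alternative run. The cause was not tested where values moved, beyond fewer samples or probe sets in the fit. With scan day as a random block the probe sets past the test numbered 72 at day 1 without LIF (307 in the text's fit), 387 at day 3 (1716), 942 at day 1 with RA (2908) and 4 for RA against no RA at day 1 (972), and list genes past it 0, 4, 7 and 0. There Cpt2 at day 1 was at 0.061, and the gate differences were -0.0477 (Cpt1a) and 0.0159 (Cpt2). With scan day as a fixed block, which could be fitted only for day 1, day 5 and day 2 with RA against control and for the gate, 535 probe sets and 7 list genes passed at day 1 and 26 list genes at day 2 with RA. Cpt1a at day 1 was then at -3.08, Cpt2 at 0.16 and Acadl at -0.18, Acadl at day 2 with RA at -0.081, and the gate at -0.23 (Cpt1a) and 0.0634 (Cpt2). Without the doubted library 472 probe sets passed at day 1 and 2571 with 20 list genes for RA against no RA, Cpt1a was at -1.54 at day 3 and -2.09 for RA against no RA, Acadm at day 1 was at 0.21, and the gate at -0.21 (Cpt1a) and 0.037 (Cpt2). With no gate term 478 probe sets passed at day 1, where Acadm was at 0.0759, and 750 with 8 list genes between day 1 with RA and day 3 (245 and 3). With no brightness filter 101 probe sets and 1 list gene passed at day 1, 380 and 3 for RA against no RA, 16 list genes at day 1 with RA, 879 and 8 for day 2 with RA within scan 3, and 10 and 0 for day 1 with RA against day 3, where Cpt1a was at -1.38. With the brightest 40% that last comparison gave 692 and 7, and the high gate alone 1 probe set. With a pseudocount of 32 it gave 722 and 8, Cpt1a was at -1.27 at day 1, -1.48 at day 3 and -1.15 for RA against no RA, and Cpt2 at day 1 was at 0.000324. With quantile normalization Cpt2 at day 1 was at 0.013 and 1 list gene passed between day 1 with RA and day 3. With 1 library left out at a time, the range of probe sets past the test was 44 to 472 at day 1 without LIF, 871 to 2264 at day 3, 1686 to 3431 at day 1 and 852 to 2694 at day 2 with RA, 149 to 2571 for RA against no RA, 0 to 1 for the gate, and, within scans, 2702 to 4163 for day 5, 285 to 1444 for day 2 with RA and 6 to 187 for day 1 with RA against day 3. The list genes past it, in the same order without the gate, ranged over 0 to 7, 8 to 24, 13 to 29, 8 to 25, 0 to 20, 16 to 27, 4 to 15 and 0 to 1. Cpt1a ranged from -1.89 to -1.39 at day 3, -2.09 to -1.02 for RA against no RA, -0.323 to 0.531 for the gate, -4.23 to -2.95 for day 2 with RA within scan 3 and -1.41 to -1.34 for day 1 with RA against day 3. At day 1 without LIF Cpt2 ranged from -0.153 to 0.115, Acadm from -0.129 to 0.215 and Acadl from -0.0181 to 0.58. For the gate Cpt2 ranged from -0.112 to 0.037 and Hadh from -0.0565 to 0.0576, and Acadl for day 2 with RA within scan 3 from -0.152 to 0.45. The replicate numbers pair only the high gates of control and day 1 without LIF, whose differences between replicates 2 and 1 had correlations of 0.173 (chip A) and 0.115 (chip B). In these 4 libraries alone Cpt1a differed by -2.10 with and without the replicate block, and 0 probe sets and 0 list genes passed in limma's test either way (768 probe sets at an unadjusted p under 0.05 without the block), with 0 to 387 and 0 to 3 when 1 of the 4 was left out. There Cpt1a ranged from -3.18 to -1.03, Cpt2 from -0.325 to 0.337, Acadm from -0.533 to 0.19 and Acadl from -0.35 to 0.798.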
